A study of Mus musculus with 24 samples.

Results

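The 9 CC chemokine ligands Ccl2, Ccl3, Ccl4, Ccl5, Ccl6, Ccl7, Ccl9, Ccl22 and Ccl24 were followed in whole mouse liver after 20 weeks on a high-fat or a control diet. They were chosen by name, as secreted CC chemokines that draw leukocytes into tissue, and were matched by symbol among the 56205 genes of the count table. All 9 were in the table, all 9 were among the 17913 genes tested, and 8 averaged at least 10 counts per library (Ccl3 averaged 7.33). Testing needed a read in at least 12 libraries. Ccl3, Ccl4, Ccl7 and Ccl22 were at 0 in 6, 3, 4 and 1 control libraries, so they met this only with high-fat libraries counted. On the high-fat diet 6 of the 9 rose (Ccl2, Ccl3, Ccl4, Ccl5, Ccl6 and Ccl7), Ccl9, Ccl22 and Ccl24 did not pass the test, and none fell. Of all tested genes 13.2% were called higher. Under a stricter filter on low counts (edgeR's default) 6 ligands were tested and 3 called higher (Ccl2, Ccl5 and Ccl6), beside 1957 of 13567 genes. Within the libraries with high counts of the RNA Xist (described below) Ccl2 alone was called higher, beside 2.76% of tested genes. Within the libraries with low Xist counts 7 ligands were called higher, beside 16.0%. The difference between these sets itself passed for 2 ligands, Ccl5 and Ccl6.

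CC chemokines are small secreted proteins named for a pair of adjacent cysteines near the start of the mature chain. They bind G protein-coupled receptors on leukocytes, which then move up the ligand gradient. In the liver Kupffer cells, stellate cells, endothelium and injured hepatocytes can release them, and Ccl2 with its receptor Ccr2 is known for bringing blood monocytes into the fatty liver.

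The libraries were poly(A) RNA-Seq of whole liver from C57BL/6J mice, 12 on the high-fat diet (FFD) and 12 on control chow, with 1 library per mouse. The high-fat diet held 40% fat, 40% carbohydrate and 2% cholesterol, with 20% fructose, and feeding began at 8 to 10 weeks of age. Both sexes were used, 6 mice of each per diet, and the labels do not give the sex of a library. Counts of Xist, the RNA that silences an X chromosome in female cells, were over 1000 in 6 libraries of each diet (replicates 1 to 6). These are called the Xist-high set here, and the other 6 of each diet the Xist-low set. Ddx3y, a gene of the Y chromosome, had 0 counts in every Xist-high library and 448 to 1016 in the Xist-low libraries. By these counts the Xist-high libraries match female and the Xist-low libraries male mice. Sex cannot be told apart from anything else that differed between the sets.

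Library totals ran from 14468418 to 22112552 counts. Control replicate 10 stood apart in its scaling factor (0.679, lowest of the 24), and high-fat replicate 3 in its neutrophil markers, whose summed level was 166 CPM (counts scaled to a common library size) against 6.28 in the lowest high-fat library. Hepatocyte markers (6 genes, Alb and Ttr among them) summed to between 35113 and 126961 CPM across the 24 libraries. Each liver is bulk tissue, so more cells of a type and more RNA per cell cannot be told apart.

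The coding stretch around the cysteine pair is shown for each ligand, because it is the feature that defines the family. The stretches come from the GENCODE M21 transcripts, 42 bases each in the coding direction, with the codons of the adjacent cysteines in capitals.
Ccl2: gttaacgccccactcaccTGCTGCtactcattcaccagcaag
Ccl7: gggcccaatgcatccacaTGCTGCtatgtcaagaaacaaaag
Ccl3: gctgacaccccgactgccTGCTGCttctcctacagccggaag
Ccl4: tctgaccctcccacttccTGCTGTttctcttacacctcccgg
Ccl5: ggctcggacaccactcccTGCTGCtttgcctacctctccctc
Ccl6: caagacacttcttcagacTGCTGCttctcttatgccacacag
Ccl9: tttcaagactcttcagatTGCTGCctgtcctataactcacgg
Ccl22: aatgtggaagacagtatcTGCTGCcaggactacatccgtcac
Ccl24: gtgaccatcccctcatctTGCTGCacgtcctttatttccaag

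Ccl4 was alone in using TGCTGT, and the other 8 used TGCTGC. Between 32 and 35 codons preceded the pair in 7 ligands, against 49 in Ccl6 and 56 in Ccl9. In those 7 the pair lay in exon 2, and in Ccl6 and Ccl9 it lay in exon 3. Of the 36 pairs of coding sequences, Ccl2 with Ccl7 had the highest identity over the aligned bases (72.4% of 290), followed by Ccl3 with Ccl4 (71.4% of 273) and Ccl6 with Ccl9 (70.6% of 344). The order depended on the measure. As a percentage of the longer sequence, Ccl3 with Ccl4 was highest (69.9%), Ccl6 with Ccl9 next (65.9%), and Ccl2 with Ccl7 had 47.0%. No member shared a 50-base word with another member's transcripts, and Ccl9 alone shared some with other genes (3.64% of its 50-base words).

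On the GRCm38 (mm10) build with GENCODE M21 gene models, 7 of the 9 genes lay on chromosome 11. Ccl2 (chr11:82035571-82037453, plus strand) and Ccl7 (chr11:82045712-82047525, plus strand) were 8258 bases apart. The others followed 1478252 bases further on, in the order Ccl5 (chr11:83525778-83530518, minus strand), Ccl9 (chr11:83572919-83578636, minus), Ccl6 (chr11:83587882-83593087, minus), Ccl3 (chr11:83647844-83649355, minus) and Ccl4 (chr11:83662584-83664683, plus). Ccl22 lay on chromosome 8 (chr8:94745590-94751699, plus) and Ccl24 on chromosome 5 (chr5:135569937-135573049, minus). Ccl2 and Ccl6 overlap an annotated gene on the opposite strand (Gm17268 and E230016K23Rik), and whether counting used strand is not given in the sources used here.

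The diets were compared to ask which ligands differed after the high-fat diet. Values are CPM after TMM scaling, and a gene was called when edgeR's quasi-likelihood test gave a Benjamini-Hochberg adjusted p of at most 0.01 and a log2 fold change beyond 0.5. By this rule 13.2% of the tested genes were higher and 4.99% lower on the high-fat diet, against 6 and 0 of the 9 ligands. At an unadjusted p under 0.05, 7 ligands were higher and 0 lower by edgeR. The median log2 fold change was 1.44 over the ligands and -0.03 over the tested genes. With scaling by library totals these medians were 1.73 and 0.26, so that scaling moved the median of the tested genes by more than 0.1.

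The monocyte chemoattractants Ccl2 and Ccl7, which share the receptor Ccr2, had among the larger changes. Ccl2 counts were 1 to 20 in the control libraries (median 7) and 20 to 208 in the high-fat libraries (median 103). After scaling, the lowest high-fat library (1.07 CPM, replicate 3) was above the highest control library (1.02 CPM, replicate 11), so the diets did not overlap. Across the tested genes 1.48% showed such a gap in this direction, and Ccl2 was the 1 ligand that did. Ccl2 rose by a log2 fold change of 3.15 ± 0.32 (SE, 12 against 12, adjusted p = 2.08e-07 by edgeR's quasi-likelihood test).

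Ccl7 was at 0 in 4 control libraries and reached 9 counts in the highest, with a median of 1. In the high-fat libraries it had 3 to 40 counts (median 18), and 11 of 12 libraries were above the highest control library. It rose by a log2 fold change of 2.59 ± 0.51 (edgeR adjusted p = 0.000282).

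Ccl3 (MIP-1 alpha), Ccl4 (MIP-1 beta) and Ccl5 (RANTES) draw macrophages and T cells. Ccl3 was at 0 in 6 control libraries and at 3 counts or fewer in 11, with a highest count of 7. Its high-fat counts were 2 to 48 (median 10.5), and 10 of the 12 libraries lay above every control library. Its log2 fold change of 3.07 ± 0.54 (edgeR adjusted p = 8.04e-05) was fitted to these low control counts, and it was 3.21 with DESeq2.

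Ccl4 counts were 0 to 13 on the control diet (median 2.5) and 5 to 73 on the high-fat diet (median 18). The diets overlapped in 3 control libraries that exceeded the lowest high-fat library. Ccl4 rose by a log2 fold change of 2.42 ± 0.49 (edgeR adjusted p = 0.000411).

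Ccl5 had 2 to 64 control counts (median 16.5) and 24 to 104 high-fat counts (median 45). The overlap was wider than for Ccl2, since 3 high-fat libraries exceeded the highest control library, replicate 6. Ccl5 rose by a log2 fold change of 1.44 ± 0.32 (edgeR adjusted p = 0.00084).

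Ccl6 and Ccl9 are rodent ligands of Ccr1 made by macrophages, and they were the most abundant of the 9. Ccl6 had 58 to 473 counts on the control diet (median 181.5) and 440 to 1069 on the high-fat diet (median 583.5). Of the 12 high-fat libraries 10 lay above every control library, and Ccl6 rose by a log2 fold change of 1.41 ± 0.24 (edgeR adjusted p = 6.64e-05). Ccl9, its neighbour 9245 bases away, had 460 to 1268 counts on the control diet (median 802.5) and 545 to 1054 on the high-fat diet (median 897). No high-fat library exceeded the highest control library, and the log2 fold change of Ccl9 was -0.12 ± 0.18 (edgeR adjusted p = 0.626). Its sign turned when library totals replaced TMM scaling (0.18) and in a fit of the Xist-low libraries alone (0.027).

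Ccl22, which draws regulatory and helper T cells through Ccr4, had 0 to 26 counts on the control diet (median 5) and 4 to 60 on the high-fat diet (median 14.5). Its log2 fold change was 1.20 ± 0.41 and did not pass (edgeR adjusted p = 0.0228), while without control replicate 6 it was 1.53 and passed (adjusted p = 0.00351). DESeq2 also called it, with an adjusted p of 0.00848. Ccl24 (eotaxin-2), which draws eosinophils through Ccr3, had 8 to 58 counts on the control diet (median 24.5) and 19 to 86 on the high-fat diet (median 35.5). It did not pass either, with a log2 fold change of 0.37 ± 0.34 (edgeR adjusted p = 0.396).

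**Figure D1:**
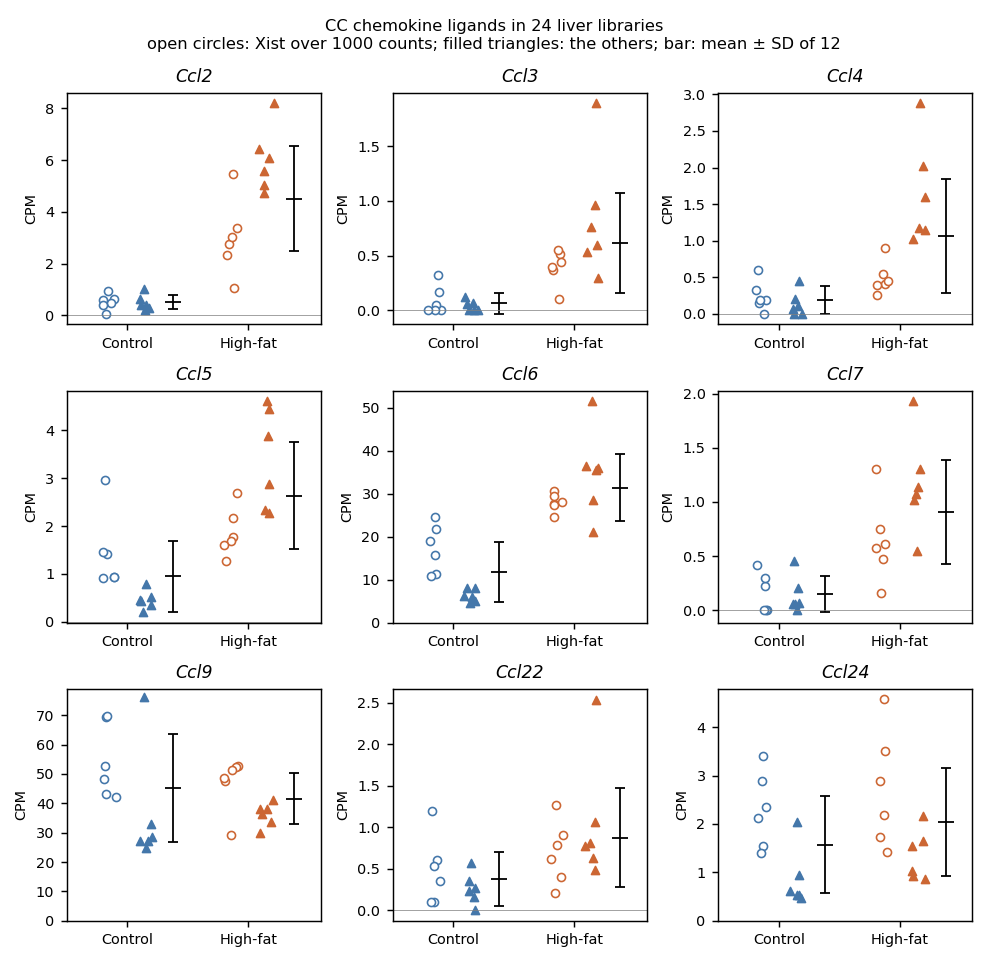
Scaled level (CPM, vertical axes, each on its own scale) of the 9 CC ligands in the 12 control and 12 high-fat libraries, with open circles for libraries with over 1000 Xist counts, filled triangles for the others, and bars for the mean ± SD of each diet. The Ccl2 points of the diets are apart, while Ccl9 spans 24.9 to 76.4 CPM on the control diet and 29.0 to 52.7 CPM on the high-fat diet.

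Levels of different genes were compared per kilobase of exon (RPKM). On the control diet Ccl9 was first, at 14.9 ± 6.04 RPKM (SD, n = 12), ahead of Ccl6 at 6.57 ± 3.84. Ccl24 (1.21 ± 0.77), Ccl5 (0.99 ± 0.78), Ccl2 (0.44 ± 0.24) and Ccl4 (0.29 ± 0.28) followed, then Ccl7 (0.18 ± 0.21), Ccl22 (0.16 ± 0.14) and Ccl3 (0.085 ± 0.13). From Ccl24 down, neighbours in this order differed by less than the larger of their SDs.

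On the high-fat diet the order of the means changed. Ccl6 came first at 17.5 ± 4.37 RPKM and Ccl9 next at 13.7 ± 2.85, a difference within the spread. By library, Ccl9 was above Ccl6 in high-fat replicates 1, 2, 4, 5, 6 and 9 and below it in the others. Ccl2 rose from the fifth place to the third, at 3.96 ± 1.78, before Ccl5 at 2.74 ± 1.16. Ccl4 (1.62 ± 1.18), Ccl24 (1.58 ± 0.87), Ccl7 (1.13 ± 0.60), Ccl3 (0.81 ± 0.60) and Ccl22 (0.38 ± 0.26) closed the order, and from Ccl2 down neighbours again differed by less than the larger SD.

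As a share of the summed RPKM of the 9 ligands, Ccl9 made up 61.1 ± 8.80% (SD, n = 12) on the control diet and 32.0 ± 7.77% on the high-fat diet. The ranges did not overlap, with 46.3% as the lowest control share and 42.5% as the highest high-fat share. No background was computed for this gap. Ccl6 made up 25.6 ± 6.28% and 40.2 ± 5.88%, and Ccl2 1.96 ± 1.22% and 8.87 ± 3.41%. These shares depend on one another, since they add up within a library.

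**Figure D2:**
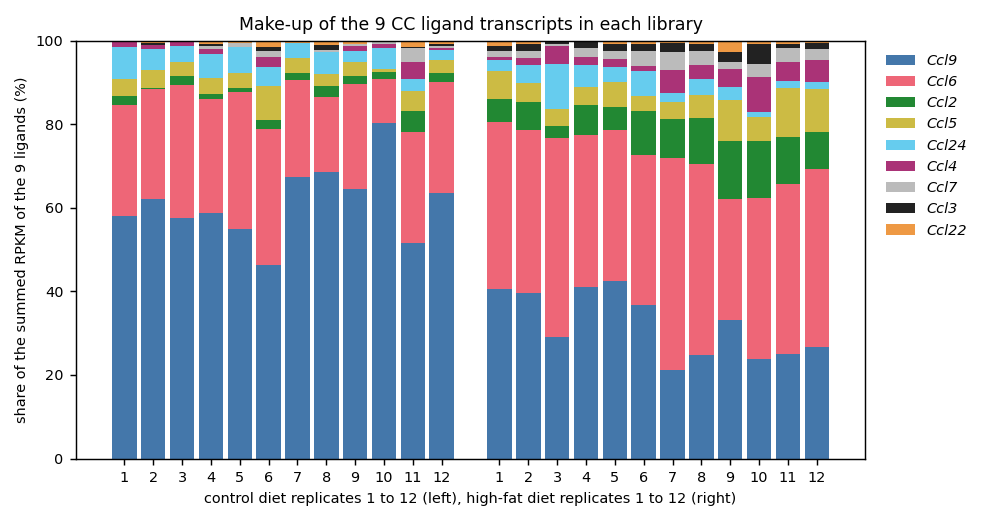
Share of each ligand in the summed RPKM of the 9 CC ligands (percent, vertical axis), 1 bar per library, control replicates at left and high-fat replicates at right. Ccl9 (blue, at the base) spans 46.3 to 80.2% of the control bars and 21.1 to 42.5% of the high-fat bars.

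The ratio of Ccl6 to Ccl9 counts needs no scaling between libraries, and it was computed after their values had been seen, so it is given without a test. It was 0.077 to 0.415 in the control libraries (median 0.260) and 0.503 to 1.42 in the high-fat libraries (median 0.757). Every high-fat library was above every control library. How often other pairs of genes show such a gap was not computed, so it cannot be said to be unusual. Within the Xist-high set the control ratios were 0.251 to 0.415 and the high-fat ratios 0.503 to 0.965, and within the Xist-low set 0.077 to 0.302 and 0.516 to 1.42.

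The promoters of these neighbours are shown because the genes lie side by side and differed in their diet response. They are RefSeq sequences of the GRCm38.p6 build, minus strand, from 250 bases before to 50 after the start, and capitals mark runs of at least 8 bases that are identical in the best local alignment of the pair. RefSeq promoters were at hand for 4 of the 9 members (Ccl3, Ccl6, Ccl9 and Ccl22).
Ccl6, chr11:83593038-83593337: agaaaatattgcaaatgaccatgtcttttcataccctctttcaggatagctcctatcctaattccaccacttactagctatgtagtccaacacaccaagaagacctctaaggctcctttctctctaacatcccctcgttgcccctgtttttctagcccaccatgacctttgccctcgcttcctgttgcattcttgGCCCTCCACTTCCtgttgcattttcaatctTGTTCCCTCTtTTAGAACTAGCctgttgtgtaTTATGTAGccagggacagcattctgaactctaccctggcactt
Ccl9, chr11:83578587-83578886: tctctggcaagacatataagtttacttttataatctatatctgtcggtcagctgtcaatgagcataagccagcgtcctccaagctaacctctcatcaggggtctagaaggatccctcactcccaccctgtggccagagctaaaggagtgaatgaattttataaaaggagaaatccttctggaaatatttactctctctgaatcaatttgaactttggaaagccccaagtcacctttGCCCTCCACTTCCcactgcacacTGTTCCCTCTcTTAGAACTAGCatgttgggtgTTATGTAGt

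The aligned block held 67 base pairs, of which 58 were identical (86.6%), and ran from position -59 to 14 in Ccl6 and from -18 to 48 in Ccl9. Among the other pairs of these 4 promoters no local alignment was longer than 23 base pairs. The longest run, 13 bases, holds ACTTCC, the reverse of the ETS core GGAAGT, at -48 in Ccl6 and -7 in Ccl9. GGAAGT occurred on either strand in all 4 promoters and in 23.8% of 32851 promoters of the same length. An NF-kB-like pattern (3 G, any 5 bases, 2 C) occurred on either strand in Ccl22 (2 matches) and Ccl9 (1 match) but not in Ccl3 or Ccl6, and in 50.8% of all promoters, and TATAAA occurred in Ccl9 alone of the 4 (3 matches, 2 of them overlapping) and in 13.6% of all promoters. The motifs were chosen after the sequences had been seen, and a match is a description of letters.

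The diet difference was then asked within each set of libraries, in a fit with diet, set and their interaction. In the Xist-low set 7 of the 9 ligands were called higher (16.0% of tested genes), with Ccl9 and Ccl24 not passing. In the Xist-high set Ccl2 was the 1 called (2.76% of tested genes), while 2 were called without control replicate 6. At an unadjusted p under 0.05 by edgeR 4 were higher in that set, beside 4574 of the 17913 tested genes in either direction. In the Xist-low set 6 ligands had every high-fat library above every control library, beside 12.6% of the tested genes, and in the Xist-high set 1 did, beside 3.51%.

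The difference between the sets itself passed for 2 ligands, Ccl5 and Ccl6, beside 2.57% of the tested genes called in that direction. Ccl6 had 219 to 473 counts in Xist-high controls (median 338) and 440 to 589 in Xist-high high-fat libraries (median 542.5). In the Xist-low set it had 58 to 144 counts (median 101.5) and 501 to 1069 (median 738). The Xist-low diets were therefore apart, while 1 Xist-high control library reached the Xist-high high-fat range. The log2 fold change of Ccl6 was 0.70 ± 0.20 (SE, adjusted p = 0.0208) in the Xist-high set and 2.46 ± 0.21 in the Xist-low set, a difference of -1.76 ± 0.28 (adjusted p = 0.000349, edgeR's quasi-likelihood test of the interaction).

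Ccl5 had 19 to 64 counts in Xist-high controls (median 22) and 24 to 51 in Xist-high high-fat libraries (median 34), against 2 to 14 (median 8) and 43 to 104 (median 82) in the Xist-low set. Its Xist-high ranges overlapped and its Xist-low ranges did not. The log2 fold change was 0.37 ± 0.29 in the Xist-high set and 2.83 ± 0.33 in the Xist-low set, and the difference of -2.46 ± 0.44 passed (edgeR adjusted p = 0.000847). Without control replicate 6, the library with the highest Ccl5, the difference was -2.11 (adjusted p = 0.00151).

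Ccl4 had a difference of -2.55 ± 0.84 that did not pass (edgeR adjusted p = 0.0541), and without control replicate 11 it was -3.53 and passed (adjusted p = 0.00744). The fitted differences of the other 6 ligands were also below 0, from -2.10 (Ccl3) to -0.22 (Ccl9), and none passed. Ccl2, the 1 ligand called in both sets, had log2 fold changes of 2.52 ± 0.38 and 3.62 ± 0.40 in the Xist-high and Xist-low sets.

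**Figure D3:**
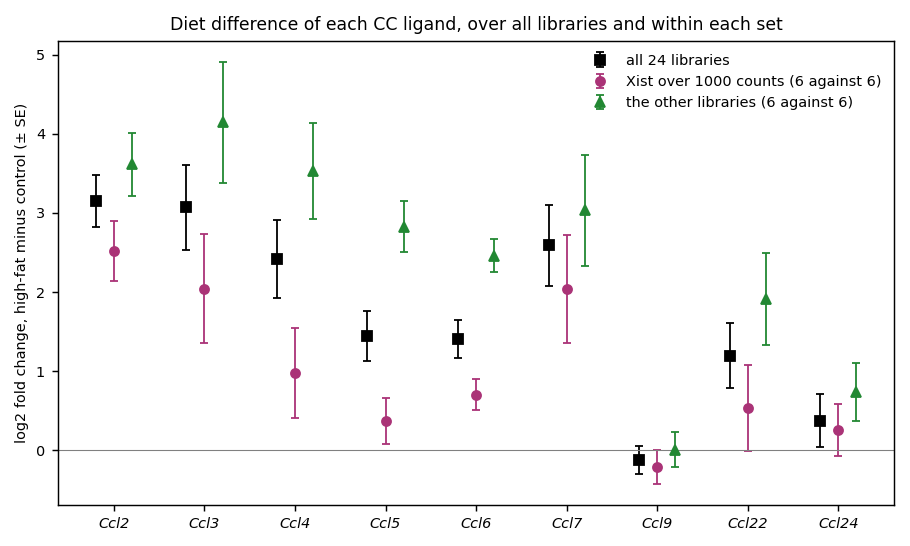
Log2 fold change of each CC ligand, high-fat minus control (vertical axis, ± SE), over all 24 libraries (black squares), within the Xist-high set (circles) and within the Xist-low set (triangles), 6 against 6 libraries in each set. Ccl5 lies at 0.37 and 2.83 and Ccl6 at 0.70 and 2.46 in the Xist-high and Xist-low sets, while both Ccl9 values lie near 0.

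The sets also differed among the control livers. On the control diet 3 ligands were higher in the Xist-high than in the Xist-low libraries, Ccl6 (log2 difference 1.44 ± 0.21, edgeR adjusted p = 2.22e-05), Ccl5 (1.59 ± 0.33, adjusted p = 0.00177) and Ccl24 (1.48 ± 0.36, adjusted p = 0.00709), beside 3.50% of the tested genes. The Ccl24 call was lost in 9 of 24 fits that left out 1 library, with adjusted p from 0.0113 to 0.0222, and all 9 left out a control library. Ccl9 differed by 0.59 ± 0.22 (adjusted p = 0.0828), and without control replicate 10 by 0.94 (adjusted p = 7.21e-05).

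On the high-fat diet no ligand was called lower in the Xist-high libraries (2.97% of tested genes were) and none higher. At an unadjusted p under 0.05 by edgeR 3 were lower and 1 higher, beside 5101 of the 17913 tested genes in either direction. Ccl4 was nearest, at a log2 difference of -1.72 ± 0.50 (adjusted p = 0.0211), followed by Ccl5 at -0.86 ± 0.28 (adjusted p = 0.0369), and Ccl2 had an adjusted p of 0.0381.

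Lists of macrophage markers differed in how many of their genes had a called set difference. The 6 general macrophage markers (Adgre1, Cd68, Csf1r, Lyz2, Mertk and Fcgr1) summed to 175 to 369 CPM in Xist-high controls and 94.7 to 176 CPM in Xist-low controls, and to 385 to 455 and 432 to 934 CPM on the high-fat diet. Of these 6 markers 5 were called higher on the high-fat diet, and 4 had a called interaction below 0, beside 2.57% of the tested genes. Of 8 markers of monocytes and monocyte-derived macrophages 0 had a called interaction below 0, and 0 differed between the control sets. Of 7 Kupffer cell markers 1 had a called interaction below 0, while 4 were higher and 1 lower in the Xist-high controls. The 9 T and NK cell markers, among which none was called by diet with edgeR (3 had an unadjusted p under 0.05 in the higher and 1 in the lower direction, and DESeq2 called 0, but edgeR called 2 without control replicate 6), summed to 3.89 to 11.6 CPM in Xist-high and 2.49 to 6.05 CPM in Xist-low controls. On the high-fat diet that sum was 3.07 to 6.02 and 5.58 to 10.1 CPM. The part of these cells in the ligand differences was not tested.

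The other CC ligands were mostly scarce. Of 15 listed, 13 were in the table, 7 were tested and 2 were called higher, Ccl8 and Ccl19. Ccl8, a further monocyte attractant, had 0 to 7 control counts (median 0) and 0 to 16 high-fat counts (median 3), with a log2 fold change of 2.46 ± 0.73 (edgeR adjusted p = 0.00902). Ccl19, a Ccr7 ligand of lymphoid tissue, had 7 to 59 and 34 to 128 counts and a log2 fold change of 0.91 ± 0.24 (adjusted p = 0.00444), and 52.0% of its 50-base words are shared with near-identical copies. In 16 of 24 fits that left out 1 library, 1 of these 2 calls was lost. Ccl20, which had too few counts to be tested, was at 0 in every control library and in every Xist-high high-fat library. In the Xist-low high-fat libraries it had 0 to 16 counts (median 2.5). Ccl26 was at 0 in all 24 libraries, and Ccl21c and Ccl27b were not analysed here.

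Of 10 CC receptors 6 were tested and 3 were called higher. Ccr2, the receptor of Ccl2 and Ccl7 on monocytes, had 6 to 73 counts on the control diet (median 28) and 61 to 369 on the high-fat diet (median 145.5), a log2 fold change of 2.12 ± 0.26 (edgeR adjusted p = 1.57e-06). Ccr1, a receptor of Ccl3, Ccl5, Ccl6 and Ccl9, had 0 to 12 and 6 to 46 counts and rose by a log2 fold change of 1.81 ± 0.44. Ccr7, the receptor of Ccl19 on dendritic cells and T cells, had 3 to 35 and 8 to 85 counts and rose by 1.27 ± 0.31. Ccr7 did not pass with the replicate number as a block (log2 fold change 1.19, adjusted p = 0.0120).

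Ccr3, the receptor of Ccl24, had 0 to 4 and 1 to 11 counts, and its log2 fold change of 1.58 ± 0.56 did not pass (adjusted p = 0.0257). Ccr4, the receptor of Ccl22, had at most 4 counts in any library and was not tested.

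Among 6 atypical receptors, which bind chemokines without the usual signal, Ackr1 (log2 fold change 1.07 ± 0.18) and Ackr3 (1.23 ± 0.26) were called higher. Of the cytokines that induce CC ligands 6 of 10 were tested and 4 rose, Tnf (2.09 ± 0.34), Il1b (1.23 ± 0.34), Il1a (0.92 ± 0.26) and Csf1 (0.91 ± 0.14), of which 2 were called without high-fat replicate 7, high-fat replicate 10 or control replicate 2. Il6 and Ifng had at most 5 counts in any library.

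Of 9 genes for NF-kB factors and their feedback inhibitors 4 rose, Relb (1.94 ± 0.25), Tnfaip3 (1.42 ± 0.16), Nfkb2 (1.16 ± 0.14) and Nfkbie (1.03 ± 0.19). Rela had a log2 fold change of 0.04 ± 0.08 that did not pass. Of 5 tested proteases that can cleave chemokines Mmp12, the macrophage elastase, rose by 3.98 ± 0.50 and Mmp2 by 2.42 ± 0.34, and Dpp4, which trims the first residues of several chemokines, had a log2 fold change of -0.33 ± 0.10 (edgeR adjusted p = 0.0137).

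**Figure D4:**
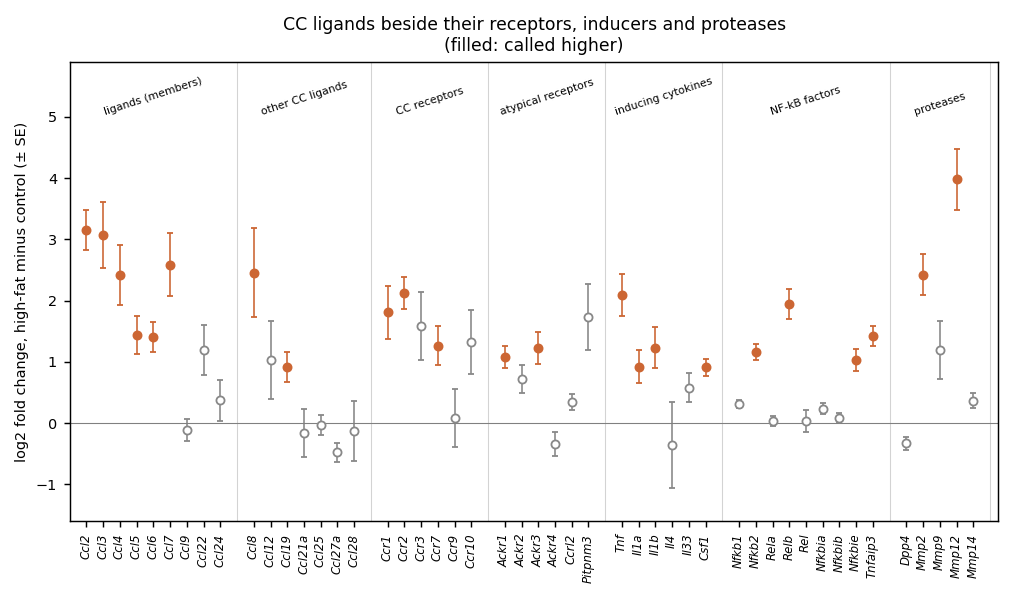
Log2 fold change, high-fat minus control (vertical axis, ± SE, 12 against 12 libraries), of the 9 CC ligands and of the tested genes for other CC ligands, receptors, inducing cytokines, NF-kB factors and proteases, with filled points for genes called higher. The filled points run from 0.91 (Ccl19) to 3.98 (Mmp12), and no gene shown was called lower.

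Marker lists differed in how many of their genes were called by diet. All 8 markers of monocytes and monocyte-derived macrophages rose, Ccr2 and Spp1 among them, and their summed level was 46.3 to 165 CPM in control libraries and 135 to 973 CPM in high-fat libraries. Of 5 tested neutrophil markers 4 rose, of 6 stellate cell markers 3, of 4 cholangiocyte markers 3 and of 7 dendritic cell markers 2 (Flt3 and Ccr7). With single libraries left out 3 to 5 neutrophil, 2 to 4 stellate and 2 to 3 dendritic cell markers were called. The neutrophil markers S100a8 and S100a9 reached 66.2 and 81.9 CPM among the Xist-high high-fat libraries, where their medians were 0.89 and 0.90 CPM. Of 7 Kupffer cell markers 2 rose (Cd5l and Folr2), and 1 was called without any one of high-fat replicates 1, 2, 3, 4, 6, 7, 8 and 10 or control replicates 1, 2, 7, 8, 9, 10, 11 and 12. Of 5 sinusoidal endothelial markers 1 rose (Stab2), and 0 were called without high-fat replicate 3 or control replicate 4, 7 or 12. None of the 9 T and NK cell markers was called, as given above, and of 4 B cell markers 0 were called by edgeR or DESeq2 (0 at an unadjusted p under 0.05). Of 2 tested eosinophil markers Siglecf rose (log2 fold change 3.11 ± 0.43), while the defining eosinophil genes Epx and Prg2 had medians of 0 in both diets. Of 6 hepatocyte markers 4 fell, Alb by 0.72 on the log2 scale, and with library totals 1 fell. The part of these cells in the rise of the ligands was not tested.

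Within a diet the ligands were then compared with each other across the 12 libraries, on log2(CPM + 1) after subtraction of set means. In a family of 42 pairs (36 for the high-fat and 6 for the control libraries, where 4 ligands averaged at least 10 counts) no pair passed an adjusted p of 0.05 for both Pearson's r and Spearman's rho, and 6 had an unadjusted p under 0.05 for both. Ccl2 and Ccl3 came nearest on the high-fat diet, with r = 0.67 (permutation p = 0.00061, adjusted p = 0.0256) and rho = 0.81 (permutation p = 0.00247, adjusted p = 0.0949). Without the 2 libraries farthest from the Ccl2 median r was 0.82. Ccl2 and Ccl9 had r = 0.75 (permutation p = 0.0235, adjusted p = 0.145) and rho = 0.64 (permutation p = 0.0325, adjusted p = 0.227). Their r was 0.43 without the 2 farthest libraries. Ccl9 and Ccl22 had r = 0.58 (permutation p = 0.0311, adjusted p = 0.145) and rho = 0.69 (permutation p = 0.0184, adjusted p = 0.193), with r = 0.50 without the 2 farthest libraries. Ccl2 and Ccl7 had r = 0.68 (permutation p = 0.0285, adjusted p = 0.145) and rho = 0.62 (permutation p = 0.0486, adjusted p = 0.276), and r fell to 0.16 without the 2 farthest libraries, so it rested on those.

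Ccl5 ran against Ccl24 on the high-fat diet, with r = -0.71 (permutation p = 0.00953, adjusted p = 0.133) and rho = -0.61 (permutation p = 0.0314, adjusted p = 0.227), and r = -0.62 without the 2 farthest libraries. On the control diet Ccl5 and Ccl6 had r = 0.68 (permutation p = 0.0227, adjusted p = 0.145), rho = 0.83 (permutation p = 0.00452, adjusted p = 0.0949) and r = 0.71 without the 2 farthest libraries. Ccl9 and Ccl24 had r = 0.85 there (permutation p = 0.00726, adjusted p = 0.133), with rho = 0.54 (permutation p = 0.0875, adjusted p = 0.331) and r = 0.51 without the 2 farthest libraries, of which control replicate 10 was the highest in Ccl9.

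**Figure D5:**
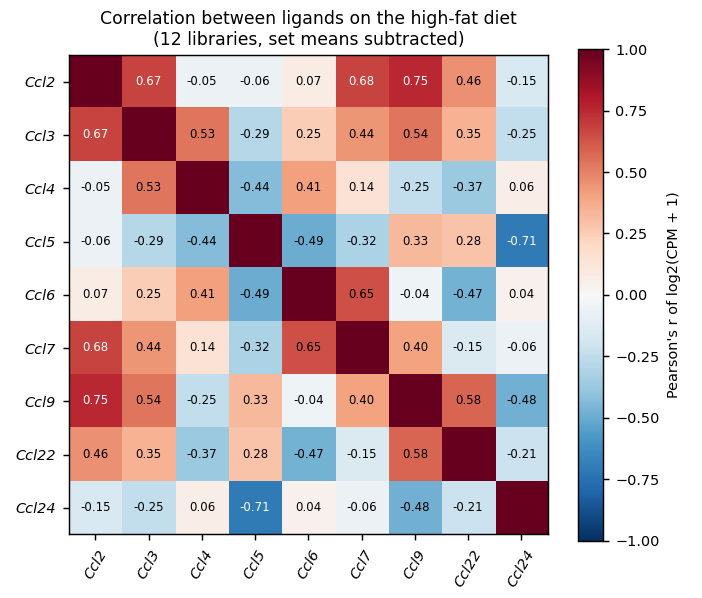
Pearson's r between the 9 CC ligands over the 12 high-fat libraries, on log2(CPM + 1) with the set means subtracted (colour and printed value). Ccl2 has positive values with Ccl3 (0.67), Ccl7 (0.68) and Ccl9 (0.75), and Ccl5 and Ccl24 have -0.71. No pair passed for both Pearson's r and Spearman's rho.

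The genes whose pattern over all 24 libraries was most like each ligand, after subtraction of diet means, were taken from 13917 tested genes with at least 10 counts on average. For Ccl2 they were Spp1 (r = 0.87), Sema3b (r = 0.86) and Elovl7 (r = 0.85), and for Ccl24 Fcna (r = 0.81), Bmper (r = 0.81) and Igtp (r = 0.79). Ccl4 was nearest Actb (r = 0.91), Ccl5 Pak1 (r = 0.87), Ccl6 Fcgr4 (r = 0.93), Ccl7 Sprr1a (r = 0.87), Ccl9 Cct4 (r = 0.87) and Ccl22 Ptgfr (r = 0.80). These values are descriptions over libraries that share depth, set and cell content.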

How the data were processed

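The authors deposited 1 table of counts, whole numbers of reads per Ensembl gene without normalization, for 24 liver libraries. The submitters' processing notes name bcl2fastq, STAR 2.7.3a and the mm10 build, and the counting tool and annotation are not given in the sources used here. Groups came from the labels, which do not state whether libraries shared a cage or a preparation day. A gene was tested when 12 or more libraries held a read of it, with edgeR 4.0.16 (R 4.3.3, TMM scaling, quasi-likelihood test, Benjamini-Hochberg adjustment). DESeq2 1.42.0, limma-voom 3.58.1, other scalings, filters and thresholds, and leaving out libraries were alternatives. Tested on simulated data, the diet fit recovered 54.5% of 2-fold and 84.5% of 4-fold changes over 17718 genes, and the interaction test 32.3% and 59.6% over 17739 genes. In the simulated diet data 99 genes changed 2-fold and 97 changed 4-fold, in random directions. Far more genes were called here (2372 higher), so these rates do not give the power of this comparison. A count of 3 was worth 0.118 to 0.305 CPM, which limits the precision for scarce ligands. RPKM used GENCODE M21 exon lengths. Correlations used 100000 permutations within sets. The members and gene lists were chosen with earlier results of these data known. All members were named, with the called genes of the fixed lists, receptors and inducers of members, and up to 3 genes most like each member. A withheld item is not reported here.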

Additional observations from a re-analysis of the deposited data

Results flagged for a closer look

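Some diet differences differed between the Xist-high and Xist-low sets by edgeR's test of the interaction, given here as the log2 difference between the sets. They were -2.46 for Ccl5 and -1.76 for Ccl6. Among inducers and related genes they were -2.22 for Il1b (adjusted p = 0.00987), -1.45 for Relb (adjusted p = 0.00978) and -0.78 for Mmp14 (adjusted p = 0.00541).

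In 5 of 36 groups of 6 libraries (each ligand in each diet and set) 1 library lay far from the other 5 by Dixon's criterion, which chance meets in about 1 of 20 groups. Ccl5 was 2.95 CPM in control replicate 6, with the next library at 1.47. Ccl9 was 29.0 CPM in high-fat replicate 3, against 47.7 or more in the other Xist-high libraries of that diet. Control replicate 10 held both Ccl9 at 76.4 CPM (next 33.0) and Ccl24 at 2.04 CPM (next 0.943). Ccl22 was 2.54 CPM in high-fat replicate 9, with the next at 1.06.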

How the results depend on the processing

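Counts of called ligands are by edgeR unless another tool is named. The 6 ligands called higher by diet (Ccl2 to Ccl7) were called again with DESeq2, limma-voom, RLE size factors, library totals, no filter, a log2 fold change over 1, the set as a covariate and in the Xist-low libraries alone, and Ccl22 joined them with DESeq2 and with library totals. With single libraries left out 6 to 7 ligands were called. The count was 3 with edgeR's default filter (6 ligands tested), 1 with at least 10 counts in every library (2 tested) and 1 in the Xist-high libraries alone. Under these last 2 settings the CC receptors called were 0 and 1, against 3, and the other CC ligands 0 and 0, against 2. The other CC ligands called were 1 with the default filter, the stricter fold change, the set covariate, the Xist-low libraries alone or without control replicates 6, 10 and 11 together (an alternative chosen after seeing the data), and 1 to 2 with single libraries left out. At an adjusted p of 0.05 with no fold threshold 5 receptors were higher and 1 of the other ligands was lower, and 0 to 1 with single libraries left out.

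Ccl9 turned sign with library totals (0.18) and in the Xist-low libraries alone (0.027). Genes called higher numbered 3827 with library totals, 1226 with at least 10 counts in every library, 3709 at an adjusted p of 0.05 and 520 in the Xist-high libraries alone, against 2372. Genes called lower numbered 226 with library totals, 3388 at an adjusted p of 0.05, 216 at a log2 fold change over 1, 158 in the Xist-high and 1431 in the Xist-low libraries alone, against 894.

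For the interaction, tested under alternatives chosen after seeing the data, 2 to 3 ligands were called with single libraries left out and 1 with at least 10 counts in every library. Genes called lower numbered 867 with DESeq2, 1200 with library totals and 1107 at an adjusted p of 0.05, and with single libraries left out 293 (control replicate 6) to 812 (control replicate 11), against 461. Correlated pairs numbered 1 on the high-fat diet with a pseudocount of 0.1, 0 to 1 with single libraries left out, and 2 in each diet without subtraction of set means.

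Replicate numbers are shared between the diets, but same-numbered libraries correlated from -0.09 to 0.54 in their deviations and were not taken as pairs. With the replicate block 6 ligands, 2063 genes higher and 844 lower were called by diet, and 2 ligands and 228 genes for the interaction. Counts under 3 per library limit Ccl3, Ccl4 and Ccl7 in the controls.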
